A study of Drosophila melanogaster with 13 samples.

Results

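Messenger RNA from the heads of adult male Drosophila melanogaster was compared between males raised as larvae on a diet poor in protein and rich in sugar (LPS) and males raised on a diet rich in protein and poor in sugar (HPS). The male libraries were 7 of the 13 libraries of the series, and they were chosen by the sex and diet given in their titles. They came from 6 of the 12 RNA samples, 3 on HPS and 3 on LPS, because the LPS RNA of strain SD2 was sequenced as 2 libraries, which were added together here. The other 6 samples were the heads of females from the same vials.

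The male HPS group comprised 1 sample each of the strains SD2, SD3 and SD6, reared on food in which protein stood to carbohydrate at 0.43. The male LPS group comprised the same 3 strains on food with a ratio of 0.1. SD2, SD3 and SD6 are isofemale lines, and the labels name no transgene or induced mutation in any group. The parents were kept on banana food. Their larvae were reared at 25 °C with day and night of 12 h each, and 10 vials of 40 larvae were set up per line and diet. Heads were taken 2 to 6 h after eclosion and pooled at 70 to 80 per sample, so each sample averages many flies of 1 line. A line stands once in each group. In the main fit strain is a fixed block, so p-values measure the spread left between pools once the mean level of each line is taken out. This spread is estimated over all 12 samples, those of females included. The fit takes the samples as independent, although males and females of a line and diet shared their vials.

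A holometabolous insect feeds as a larva and builds most of the adult during a pupal stage in which it does not eat. Larval fat body makes hexamerin storage proteins, which are taken back up before metamorphosis and used as a store of amino acids, and fat body cells of larval origin persist in the young adult for a time. A newly eclosed fly is also still tanning its cuticle and has not yet fed. The comparison therefore addresses what a larval diet leaves in the adult head, which holds the brain, the eyes, muscle, glia and some fat body.

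Before any diet difference could be read, the strain labels of a pair of male LPS libraries needed attention. Each sample's log2 level of every tested gene was expressed as a deviation from its group of diet and sex, and deviations were correlated between samples over 10026 genes, as a description of likeness. Male samples correlated with females of their own strain label at 0.62 to 0.81, except for the libraries labelled male LPS SD3 and male LPS SD6. The library labelled male LPS SD3 correlated at −0.33 and −0.34 with the SD3 females and at 0.75 and 0.76 with the SD6 females. The library labelled male LPS SD6 correlated at −0.31 and −0.29 with the SD6 females and at 0.66 and 0.72 with the SD3 females. Both libraries are male and LPS by label, so exchanging their strains changes which male HPS sample each is paired with and leaves diet and sex as they are. Whether their diet labels hold was not tested. On the ground of these correlations, values are given with these 2 strain labels exchanged unless a sentence says as labelled. Values as labelled stand beside them for the count of calls, the 12 called genes and the main lists.

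**Figure D1:**
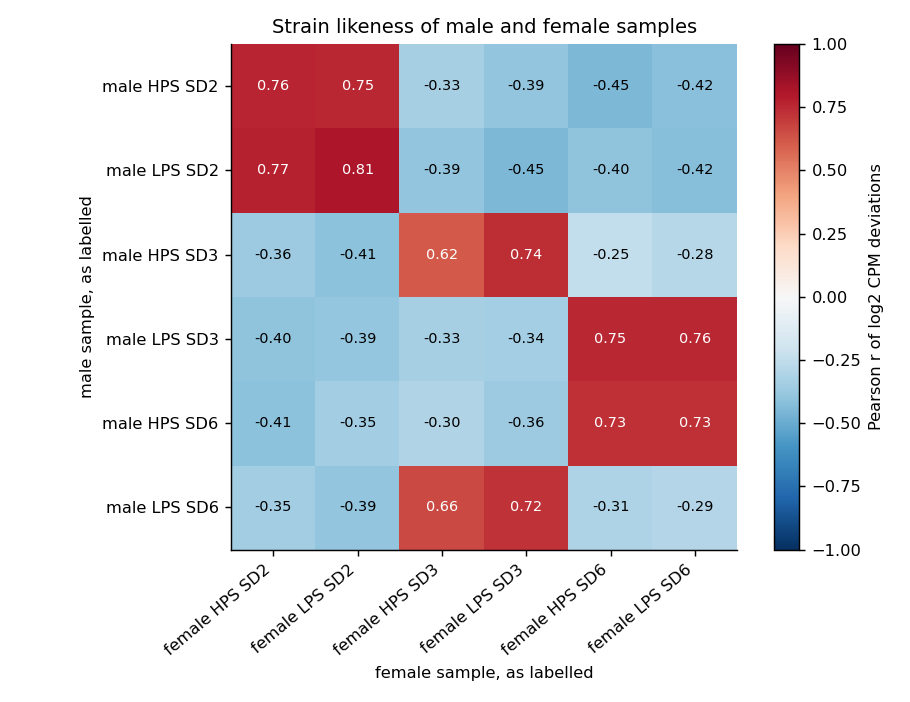
Pearson correlation of log2 CPM deviations from the group mean over 10026 genes, with each male sample in a row and each female sample in a column. The rows of male LPS SD3 and male LPS SD6 are high (0.66 to 0.76) in the columns of each other's strain, while the other male rows are high (0.62 to 0.81) in their own.

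The exchange also set how far apart paired libraries lay. With strains as labelled, the SD of the log2 difference between LPS and HPS males over all tested genes was 0.34 in SD2, 0.69 in SD3 and 0.693 in SD6. With exchanged labels it was 0.484 in SD3 and 0.286 in SD6, against 0.305 to 0.362 in the 3 female pairs. The library labelled male LPS SD3 differed from the male HPS SD6 library by 11.9 in chi-square per degree of freedom and by an SD of 0.248 in log2 level. The 2 libraries made from the same male LPS SD2 RNA differed by 13 and 0.246, so the former pair, which differs in diet by label, was as close as these 2 libraries of 1 RNA. The former pair came from 1 sequencing run and the latter from 2, so the latter values also hold any difference between runs. Both pairs differed by more than sampling noise.

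The male libraries held 8.63 M to 17.8 M gene reads each, the sum for male LPS SD2 came to 27.5 M, and 11451 to 12199 genes had at least 1 read in a male library. A sequencing run named run0465 holds the male HPS SD2 library and 1 of the male LPS SD2 libraries, and run0437 holds the rest. The run0465 libraries had more reads outside genes (10.4% and 14.9%, against 3.05% to 4.96% in the other male libraries) and more spike-in reads per M gene reads (6510 and 5360, against 713 to 1440). With the run0465 library alone standing for male LPS SD2, every male pair lay within 1 run, and results are given below for that case where they differ. Markers of photoreceptors, neurons, glia and muscle were all read in all male samples. In contrast, 5 of 8 gut markers, 5 of 8 testis markers, 3 of 6 accessory gland markers and 4 of 5 salivary gland markers had no read in any male library.

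Levels are counts per M gene reads (CPM, scaled by TMM), and differences are log2 ratios of LPS to HPS with their standard error (SE) from edgeR's quasi-likelihood test, fitted to all 12 samples. The threshold was a Benjamini-Hochberg adjusted p below 0.05 over all 10026 tested genes. In bulk RNA, fewer cells of a type and less RNA per cell cannot be told apart.

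With strains as labelled, 0 genes passed the threshold between LPS and HPS males (0% of those tested), and 581 had an unadjusted p below 0.05 (5.79%). DESeq2 called 19 genes and limma-voom 0. With exchanged labels 12 genes passed (0.12%), 6 higher and 6 lower on LPS (0.0598% each), and 1143 had an unadjusted p below 0.05 (11.4%). DESeq2 called 98 genes and limma-voom 16, and all 12 were among both. Because the exchange stays within 1 group and each strain stands once per group, the design itself holds the log2 ratios nearly fixed. They moved by under 0.05 in 85.5% of genes, which is therefore no sign of robustness. The median SE fell from 0.143 to 0.111. Genes with 1 sign in all 3 strain pairs made up 21.2% as labelled and 32.5% with exchanged labels. The 12 calls rest on few samples. Without the male HPS SD3 sample 0 genes passed, without male HPS SD2 or male LPS SD2 1 gene passed in each case (Obp99b and Lsp1alpha, respectively), and without both SD2 samples these 2 passed. Without the library labelled male LPS SD6 5 genes passed, of which 2 were among the 12. Without that labelled male LPS SD3 9 passed, and without male HPS SD6 16, with 6 of the 12 in each case. With a replicate block by strain and sex 9 genes passed, of which 5 were among the 12 (Cyp4e3, Sirup, CG13056, Lsp1alpha and Obp99b), and with strain as a random block in limma-voom 0 passed (982 at an unadjusted p below 0.05). With the run0465 library alone for male LPS SD2 7 of the 12 passed, and with the 6 male samples fitted alone 2 passed, Cyp4e3 and Obp99b.

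All 12 genes had 1 sign in the 3 strain pairs in both pairings, and all had an unadjusted p below 0.05 as labelled. In 7 of them the 3 LPS samples did not overlap the 3 HPS samples, which held for 6.79% of all tested genes. The 12 were chosen by their p in these same samples, so these traits are no separate support for them. In the sentences below the levels follow the labels SD2, SD3 and SD6, before any exchange, and the log2 ratios and adjusted p are those with exchanged labels.

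The largest rise among the 12 was that of Cyp4e3 (FBgn0015035, arm 2L), a cytochrome P450 gene of a family that oxidises fatty acids and foreign compounds. It stood at 71.3, 21.7 and 71.2 CPM in the HPS males and at 441, 300 and 79.8 CPM in the LPS males. Every LPS sample was above every HPS sample, and the low HPS SD3 sample is matched by the low library labelled LPS SD6, which lies with strain SD3. The rise was 2.20 ± 0.27 on the log2 scale, or 4.60-fold (edgeR adjusted p = 0.0161), and the log2 difference was 2.63, 1.87 and 2.08 in the 3 exchanged pairs. As labelled the ratio was 2.42 ± 0.64 (edgeR adjusted p = 0.771).

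Sirup (FBgn0031971, arm 2L), an assembly factor of mitochondrial succinate dehydrogenase, stood at 165, 137 and 135 CPM on HPS and at 343, 214 and 213 CPM on LPS. The groups did not overlap, and SD2 had the highest sample on each diet. The rise was 0.79 ± 0.11, or 1.73-fold (edgeR adjusted p = 0.0161). Jabba (FBgn0259682, arm 2R), a lipid droplet protein that anchors histones to droplets in the embryo, was at 65.2, 87.2 and 65.8 CPM on HPS and 86.7, 97.2 and 125 CPM on LPS. It rose by 0.50 ± 0.083 (edgeR adjusted p = 0.0412), with the highest HPS sample just above the lowest LPS sample. Further rises were those of genes known by number. CG30050 went from 6.45, 7.20 and 7.96 CPM to 15.4, 12.1 and 12.1 CPM (0.88 ± 0.14, edgeR adjusted p = 0.0401), without overlap. CG13056 went from 42.9, 55.2 and 39.8 CPM to 62.9, 65.5 and 86.7 CPM (0.64 ± 0.093, edgeR adjusted p = 0.0244), also without overlap. CG7227 rose by 0.71 ± 0.12 (edgeR adjusted p = 0.0412), and its groups overlapped.

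**Figure D2:**
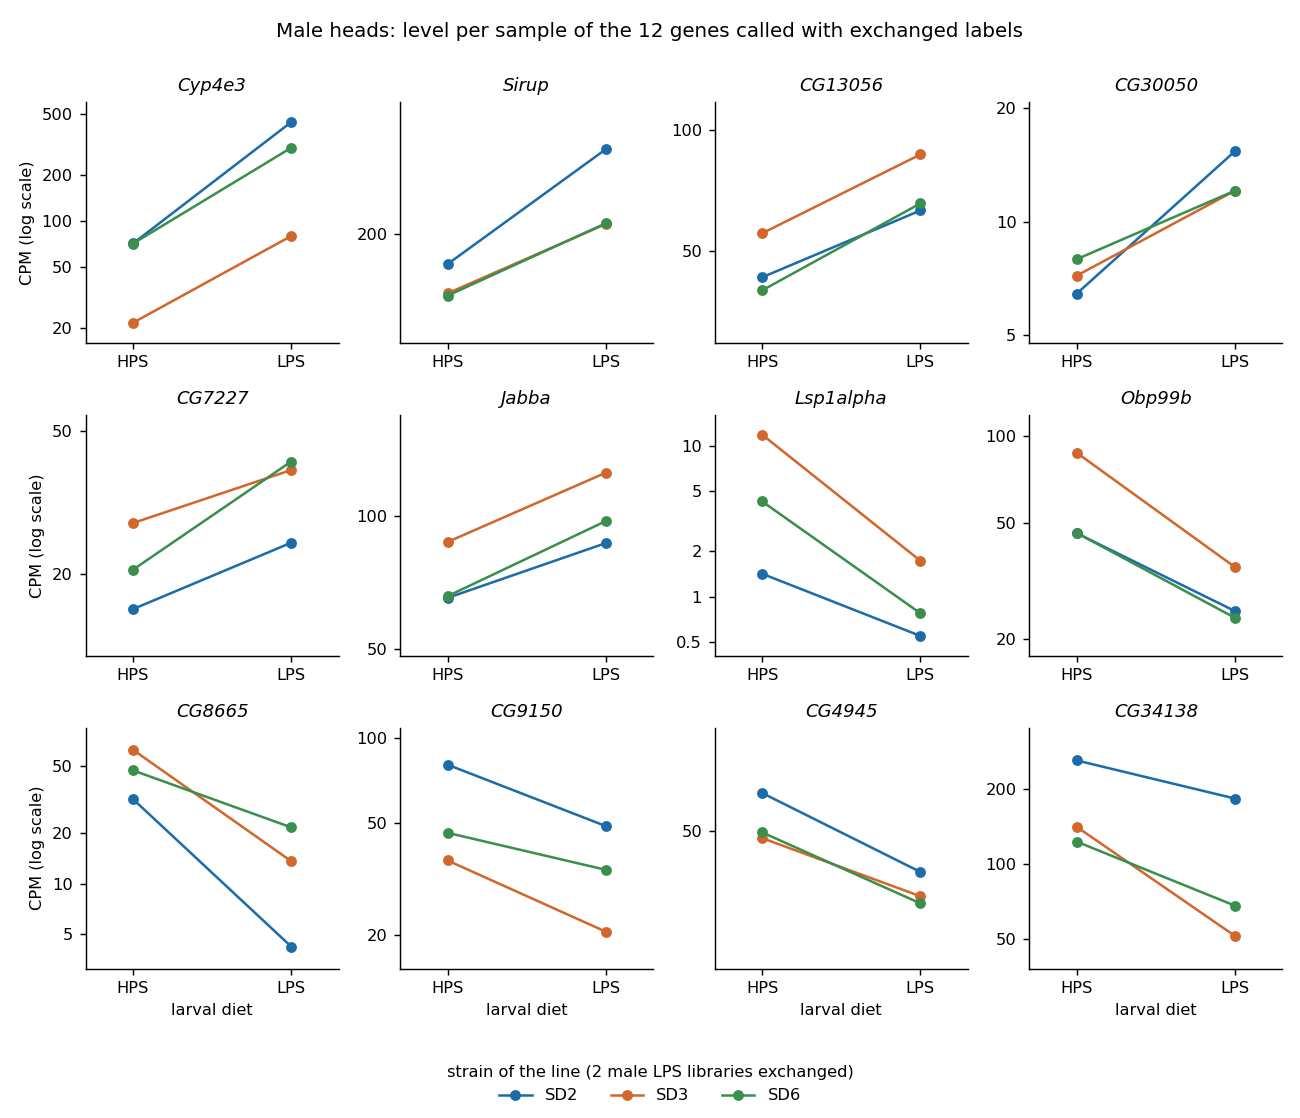
CPM on a log axis for the 12 genes past the threshold with exchanged labels, on HPS and LPS, with a line joining the male samples of a strain after the exchange (6 samples). The 3 lines of each panel slope the same way, up in the 6 rises (Cyp4e3 4.60-fold) and down in the 6 falls (Lsp1alpha 4.80-fold), while strains differ in level within a diet.

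The largest fall among the 12 was that of Lsp1alpha (FBgn0002562, arm X), the alpha subunit of larval serum protein 1, a hexamerin. It stood at 1.42, 11.8 and 4.27 CPM on HPS and at 0.551, 0.778 and 1.73 CPM on LPS, with 6 to 15 reads in each of the 4 LPS libraries. The ranges overlapped, because the SD2 strain was low on both diets. The fall was −2.26 ± 0.30, or 4.80-fold (edgeR adjusted p = 0.0161). Obp99b (FBgn0039685, arm 3R), of the odorant-binding proteins that are secreted into the fluid around chemosensory neurons and in other tissues, was at 46.2, 87.5 and 46.3 CPM on HPS. On LPS it was at 24.9, 23.6 and 35.3 CPM, below every HPS sample. It fell by 1.07 ± 0.15 on the log2 scale, or 2.1-fold (edgeR adjusted p = 0.0161).

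Of the number-only genes that fell, CG8665 (FBgn0032945, arm 2L) had the largest change, from 31.8, 62.4 and 47.1 CPM to 4.23, 21.6 and 13.6 CPM (−1.99 ± 0.31, edgeR adjusted p = 0.0322). Its groups did not overlap. CG4945 went from 59.7, 48.5 and 49.8 CPM to 41.5, 35.9 and 37.1 CPM (−0.46 ± 0.073, edgeR adjusted p = 0.0322), again without overlap. CG34138 went from 260, 141 and 123 CPM to 183, 68.2 and 51.6 CPM, and CG9150 from 80.3, 36.8 and 46.1 CPM to 48.7, 34.1 and 20.6 CPM. Both fell within each strain pair (−0.92 ± 0.16 and −0.65 ± 0.10; edgeR adjusted p = 0.0468 and 0.0322) while their groups overlapped.

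As labelled the ratios of the 11 genes other than Cyp4e3 lay near those above, which the balanced design largely sets, and none passed. Sirup was at 0.79 ± 0.12, CG30050 at 0.88 ± 0.15, CG7227 at 0.70 ± 0.13, CG8665 at −2.0 ± 0.36 and CG4945 at −0.46 ± 0.076, each with an edgeR adjusted p of 0.45. CG34138 was at −0.92 ± 0.18 (edgeR adjusted p = 0.524), Lsp1alpha at −2.21 ± 0.49 (0.649) and CG13056 at 0.65 ± 0.16 (0.736). Jabba was at 0.51 ± 0.15 and Obp99b at −1.03 ± 0.29 (edgeR adjusted p = 0.771 for both), and CG9150 at −0.62 ± 0.21 (0.787).

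The fall of Lsp1alpha was shared in direction by its list. The larval storage proteins and their receptor, Lsp1alpha, Lsp1beta, Lsp1gamma, Lsp2, Fbp1 and Fbp2, were all tested. With exchanged labels all 6 were negative and all 6 had an unadjusted p below 0.05, against 5.42% of all tested genes on the lower side, with a median of −1.73 against 0.0018 over all genes. Only Lsp1alpha passed over all genes. Over the 17 alternatives tried with exchanged labels the median of the list ran from −1.78 to −1.29. As labelled 5 of 6 were negative, 2 had an unadjusted p below 0.05 on the lower side (2.53% of all tested genes, and 3.26% on the higher side), and the median was −1.26.

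Strain and diet both showed in the levels of the other members. Fbp1, the receptor through which fat body takes storage proteins up, stood at 30.8, 146 and 39.3 CPM on HPS and at 1.45, 7.06 and 64.7 CPM on LPS. The library labelled LPS SD6 was thus above 2 of the HPS samples, but below the HPS SD3 sample with which its strain pairs it. Fbp2, a fat body protein, was at 14.3, 47.3 and 27.9 CPM on HPS and at 0.482, 5.28 and 20.9 CPM on LPS. The log2 ratio of Fbp1 was −2.26 ± 0.52 (edgeR adjusted p = 0.149) and that of Fbp2 −2.28 ± 0.49 (edgeR adjusted p = 0.125). Their pair differences were widest in SD2, at −4.30 and −4.57, and narrowest in SD3, at −1.17 for each.

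Lsp2, another hexamerin, was at 114, 152 and 41.9 CPM on HPS and 33.2, 28 and 65 CPM on LPS (−1.21 ± 0.23, edgeR adjusted p = 0.0826). Lsp1beta was at 24, 55.7 and 180 CPM on HPS and 13.7, 120 and 22.4 CPM on LPS (−0.83 ± 0.17, edgeR adjusted p = 0.108). Within HPS it ranged over the strains from 24 to 180 CPM. Lsp1gamma was at 3.03, 41.8 and 6.75 CPM on HPS and 3.41, 3.33 and 26.5 CPM on LPS (−0.62 ± 0.26, edgeR adjusted p = 0.395). It was not lower in SD2. As labelled its ratio was 0.092 ± 0.99, so its sign turns with the strain labels. The adult fat body markers fixed for the check ran from 995 to 1980 CPM in sum on HPS and from 951 to 1910 CPM on LPS, ranges that overlap. Their part in the storage protein result was not tested.

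**Figure D3:**
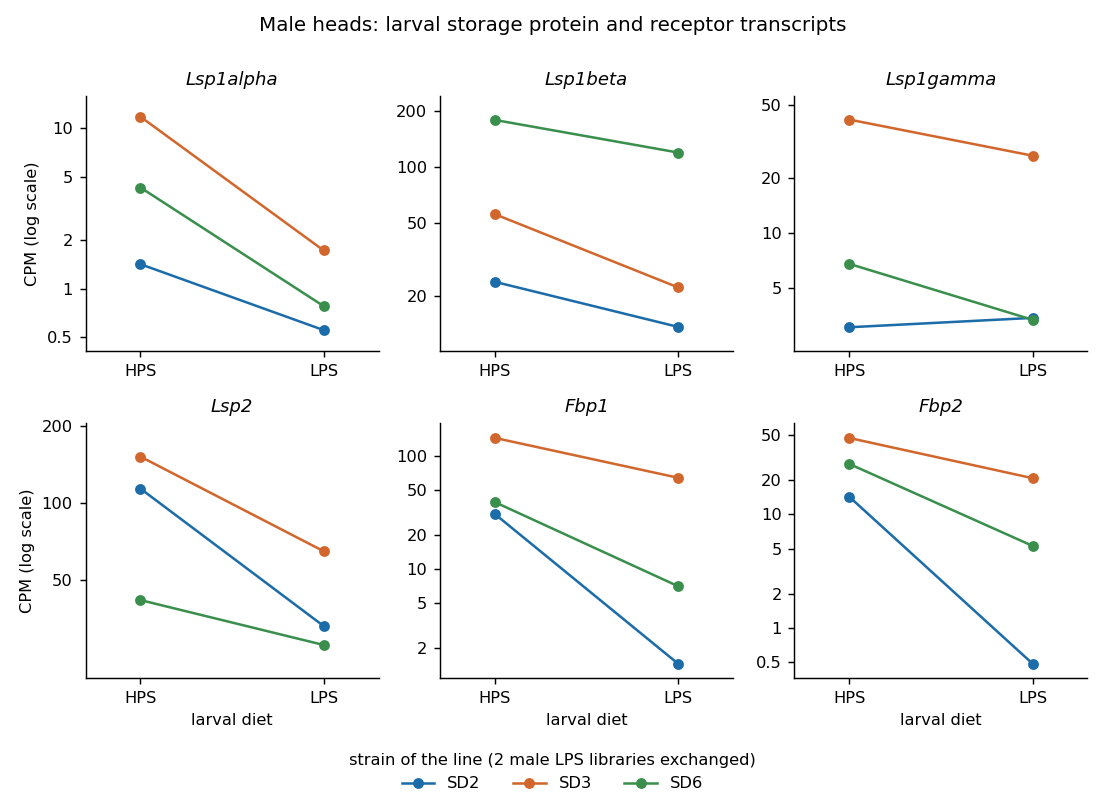
CPM on a log axis of the 6 larval storage protein and receptor genes in HPS and LPS males, with lines joining the samples of a strain after the exchange of 2 labels. All lines fall but that of Lsp1gamma in SD2 (3.03 to 3.41 CPM), and strains differ up to many-fold within a diet.

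Female heads showed the same direction for these genes. In the female contrast of the same fit with exchanged labels all 6 members were negative, with a median of −1.74, and Lsp1alpha was at −2.36 ± 0.23. The difference between the male and the female diet effect was 0.091 ± 0.43 for Lsp1alpha. Of the 12 genes called in males, 11 had the same sign in females and 8 were past the threshold there, against 28 of all tested genes (0.279%). Both contrasts share the strain effects and the estimate of the spread. Genes called in males are thereby favoured in females, and the 8 are not a replication. Males and females of a line and diet also came from the same vials, and what this adds to their likeness was not tested. In the fit as labelled the female contrast had 0 calls (0%) and 420 genes whose unadjusted p was below 0.05, so these 8 calls depend on the exchange of the male labels in the shared fit. The exception in sign was CG30050, at 0.88 in males and −0.035 ± 0.15 in females. Its difference between the sexes was 0.91 ± 0.21, with an unadjusted p of 0.0007 and an edgeR adjusted p of 0.998. Over all tested genes 0 passed for that difference in either pairing (0%), with 180 genes at an unadjusted p below 0.05 as labelled (1.8%) and 471 with exchanged labels (4.7%). DESeq2 called 0 as labelled and 3 with exchanged labels (Mlp60A, ND-15 and TotA, chosen here after their values were seen), and limma-voom called 0 in each. CG13056, Sirup and Obp99b also had an unadjusted p below 0.05 for the difference, at 0.50 ± 0.13, 0.43 ± 0.15 and 0.56 ± 0.20. Obp99b was at −1.63 ± 0.14 in females and −1.07 ± 0.15 in males, and none of these 3 differences passed over all genes.

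The next genes by p, among those with 1 sign in all pairs under both pairings, did not pass the threshold, and their values are given as such. On the higher side stood genes of the mitochondrial respiratory chain. ND-15, a subunit of complex I, was at 145, 140 and 149 CPM on HPS and 188, 183 and 217 CPM on LPS (0.43 ± 0.08, edgeR adjusted p = 0.0792). The complex III subunit genes ox and UQCR-6.4 were at 0.44 ± 0.091 and 0.37 ± 0.079, and COX7AL2, a cytochrome c oxidase subunit gene, at 0.61 ± 0.13. In each of these 4 genes the 3 LPS samples lay above the 3 HPS samples. ND-15 shares its annotated span with 16 other annotated features, 7 of them on its own strand, so its counts may be uncertain. The overlap is that of whole spans, and its part in the counts was not tested.

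The remaining higher genes named by the rule were TotA, Mtk, Sf3b5, CG12116, CG5773 and CG31715. TotA, a secreted peptide of the Turandot stress family, was at 12.7, 35.2 and 51.9 CPM on HPS and 25.6, 84.4 and 78.4 CPM on LPS. Its ratio was 0.94 ± 0.17 in males (edgeR adjusted p = 0.0792) and −0.42 ± 0.17 in females. The difference between the sexes, 1.36 ± 0.25, had an unadjusted p of 9.65e-05 and an edgeR adjusted p of 0.968. Mtk, the antifungal peptide metchnikowin, was at 6.16, 6.00 and 10.2 CPM on HPS and 16.5, 20.3 and 11.1 CPM on LPS (1.10 ± 0.24, edgeR adjusted p = 0.125). Its annotated span overlaps that of Stacl on the same strand. Sf3b5, a small subunit of the SF3b splicing complex, was at 13.8, 15.7 and 19.2 CPM on HPS and 23.7, 25.3 and 29.1 CPM on LPS (0.66 ± 0.13, edgeR adjusted p = 0.0826).

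On the lower side stood Sardh, the mitochondrial sarcosine dehydrogenase, at 14.3, 22.8 and 18.6 CPM on HPS and 6.64, 13.3 and 13.2 CPM on LPS (−0.79 ± 0.15, edgeR adjusted p = 0.0826). The cuticle protein gene Ccp84Ab was at 66.8, 49.3 and 25.5 CPM on HPS and 38.9, 19.4 and 19.2 CPM on LPS (−0.84 ± 0.15, edgeR adjusted p = 0.0645). The other lower genes named by the rule had smaller ratios. Srpk79D, an SR protein kinase of neurons, was at 80 to 90.9 CPM on HPS and 66.7 to 73.4 CPM on LPS (−0.31 ± 0.065). The adaptor gene cindr, which links surface receptors to actin, was at 303 to 370 CPM on HPS and 235 to 251 CPM on LPS (−0.46 ± 0.091). Arc1, a Gag-related gene whose product forms capsids at synapses, was at −0.47 ± 0.092, with groups that overlapped. The transcription factor genes Kah and hb were at −0.38 ± 0.078 and −0.53 ± 0.11, and bw, the ABC transporter of red eye pigment precursors, at −0.44 ± 0.093. For the difference from females Srpk79D was at −0.28 ± 0.092 (edgeR adjusted p = 0.998), and cindr, Arc1, Kah, hb and bw had ratios between −0.29 and 0.0015.

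Gene lists were described by counts and medians, without a test, beside all tested genes, of which 5.98% had an unadjusted p below 0.05 on the higher side and 5.42% on the lower side with exchanged labels. Among genes of short coding length, described further below, the share on the higher side was 16.8%, and several lists consist mostly of such genes. Oxidative phosphorylation had 21 of 69 tested members with such a p on the higher side and 0 on the lower side. In this list 52 members were positive, the median was 0.11, and Sirup alone passed over all genes. By complex, 25 of 32 subunit genes of complex I were positive (median 0.13), 2 of 4 of complex II (0.0081), 4 of 7 of complex III (0.053), 8 of 9 of complex IV (0.22) and 7 of 11 of complex V (0.035). Nuclear genes of mitochondrial ribosomal proteins had 16 of 70 on the higher side and 0 on the lower side, with 58 positive and a median of 0.15. Their smallest p was that of mRpL27, at 12.6, 13.6 and 15.2 CPM on HPS and 20.1, 22.6 and 15 CPM on LPS (0.50 ± 0.12, edgeR adjusted p = 0.149). Cytosolic ribosomal proteins had 11 higher and 2 lower of 80 (median 0.026), led by RpL39 (0.50 ± 0.13, edgeR adjusted p = 0.183). The pair medians of the cytosolic list were 0.23, −0.24 and 0.084 in SD2, SD3 and SD6, and its direction turned with the samples. Without male LPS SD2 it had 6 higher and 4 lower (median −0.056), without male HPS SD2 5 and 3 (−0.022), without male HPS SD6 8 and 2 (−0.0043), and without both SD2 samples 3 and 5 (−0.061). Without male HPS SD3 it had 14 higher and 0 lower (0.11). Without the library labelled male LPS SD6 it had 15 and 0 (0.12). Across the 3 exchanged pairs the median of oxidative phosphorylation was 0.34 in SD2, −0.063 in SD3 and 0.11 in SD6. Without both SD2 samples it was 0.02, with 10 members on the higher side, and within run0465 for SD2 it was 0.087. Without male HPS SD2 it had 13 higher (0.046), without male LPS SD2 11 (0.033) and without the library labelled male LPS SD6 36 (0.19). The pair medians of the mitochondrial ribosomal list were 0.20, 0.078 and 0.11, and its count on the higher side was 6 without male HPS SD2 and 5 without male LPS SD2 or without both. As labelled the SD6 pair turned in all 3 lists, and the SD3 pair turned for oxidative phosphorylation and cytosolic ribosomal proteins. The pair medians were then 0.34, 0.17 and −0.14 for oxidative phosphorylation, 0.20, 0.38 and −0.20 for mitochondrial and 0.23, 0.0032 and −0.18 for cytosolic ribosomal proteins. As labelled 15, 10 and 8 members of these lists stood on the higher side and 0 on the lower side.

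In females the medians of these lists were −0.067 for oxidative phosphorylation, 0.0059 for mitochondrial ribosomal proteins and −0.083 for cytosolic ribosomal proteins. The difference between the sexes had an unadjusted p below 0.05, with the male effect the more positive, for some members. These were 21 of 69 oxidative phosphorylation genes, 8 of 70 mitochondrial and 9 of 80 cytosolic ribosomal protein genes. Over all tested genes this held for 3.16%, and for 1.54% with the male effect the more negative. Most members of these lists lie in the shortest coding class, described below. In that class the male effect was the more positive at such a p for 243 of 2370 genes. None passed the threshold.

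**Figure D4:**
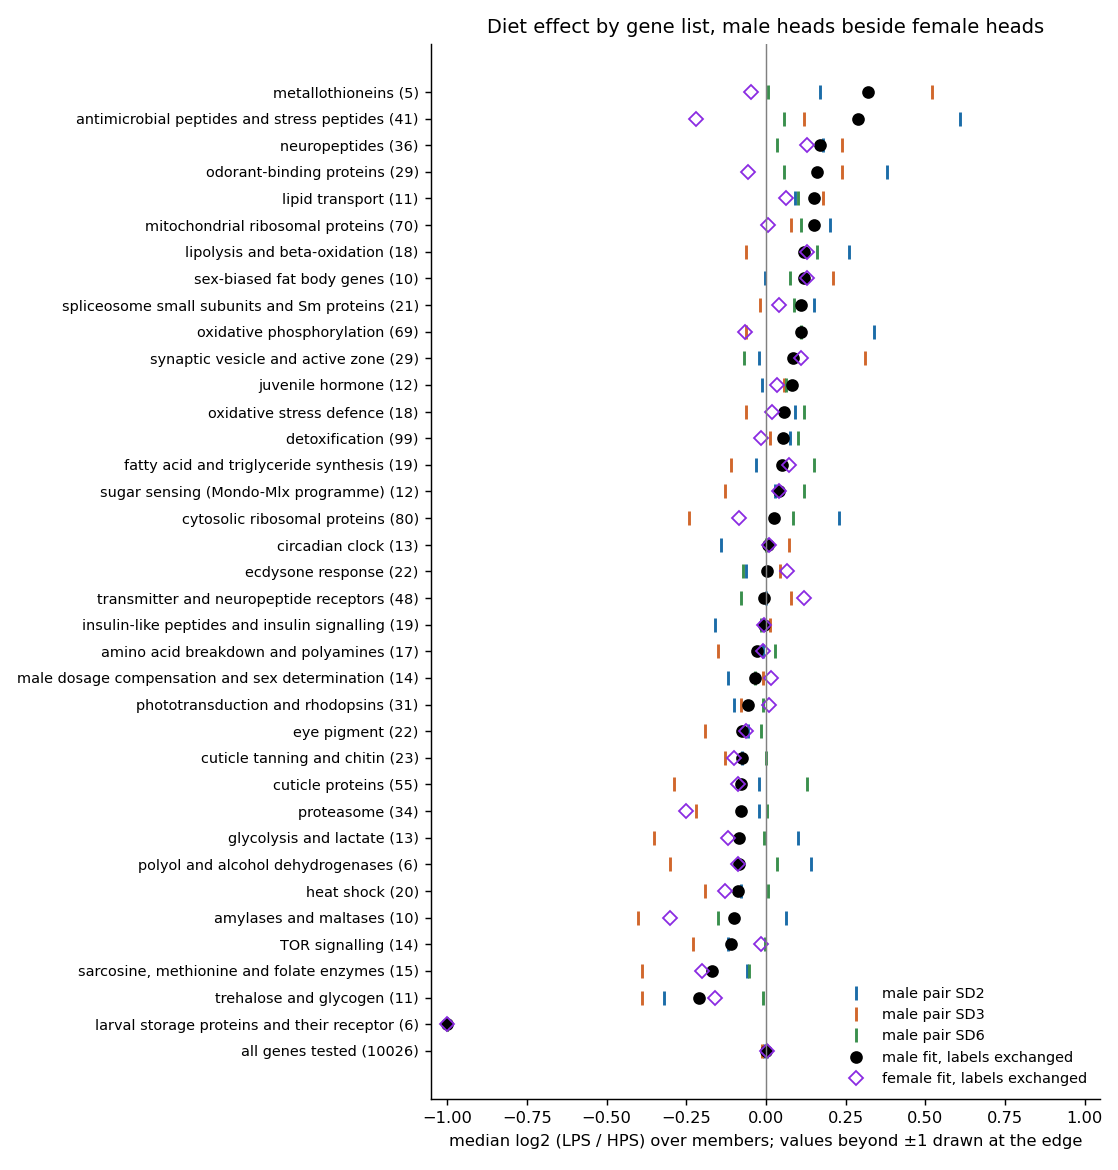
Median log2 ratio of LPS to HPS over the tested members of each list (number in brackets), from the male fit (black), the female fit (open diamonds) and the 3 male strain pairs (ticks), with 2 strain labels exchanged. The storage proteins lie beyond the axis in both sexes (−1.73 and −1.74), while antimicrobial and stress peptides lie at 0.29 in males and −0.22 in females.

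Among secreted defence genes, 11 of 41 antimicrobial and stress peptide genes had an unadjusted p below 0.05 on the higher side and 0 on the lower side, with 28 positive. The median was 0.29 in males and −0.22 in females, and 13 members had such a p for the difference, all with the male effect the more positive. Over all tested genes the latter held for 3.16%, and in the shortest coding class, where most members lie, for 243 of 2370 genes. The male median was 0.61 in SD2, 0.12 in SD3 and 0.058 in SD6. Without both SD2 samples it was 0.15 with 6 members on the higher side, and without male HPS SD6 0.49 with 19. Without male HPS SD2 and without male LPS SD2 it was 0.14, and without the library labelled male LPS SD3 0.19. None passed over all genes. As labelled 7 members stood on the higher side, and the SD6 pair turned, with pair medians of 0.61, 1.01 and −0.68. Haemocyte markers, whose cells make some of these peptides, ran from 200 to 223 CPM in sum on HPS and from 202 to 234 CPM on LPS, and their part in the result was not tested. Odorant-binding proteins, of which Obp99b fell, were nevertheless positive in 23 of 29 (median 0.16), with 4 on the higher side and 2 on the lower side. The count on the higher side ran from 1 (without male HPS SD2 or the library labelled male LPS SD3) to 8 (without male HPS SD6). Neuropeptide genes were positive in 29 of 36 (median 0.17, females 0.13), with 6 on the higher side and 0 on the lower side, and with 2 on the higher side without male HPS SD3. As labelled 2 odorant-binding protein genes and 4 neuropeptide genes stood on the higher side, with SD6 pair medians of −0.085 and −0.012. The smallest p of the neuropeptides was that of SIFa, a peptide of a few brain neurons (0.39 ± 0.079, edgeR adjusted p = 0.108).

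In metabolism, 2 lists had several members on the lower side. Trehalose and glycogen genes had 5 of 11 with an unadjusted p below 0.05 on the lower side and 0 on the higher side (median −0.21, females −0.16). The pair medians were −0.32, −0.39 and −0.009. The count on the lower side was 2 without male HPS SD2, male HPS SD3 or male LPS SD2, 3 without the library labelled male LPS SD6 and 8 without male HPS SD6, and as labelled it was 1. The trehalose and glycogen list was led by Pgm2a, a phosphoglucomutase, at 86.6, 85.4 and 68.2 CPM on HPS and 62.4, 63.1 and 52.4 CPM on LPS (−0.42 ± 0.12, edgeR adjusted p = 0.199). Enzymes of sarcosine, methionine and folate had 6 of 15 on the lower side and 0 on the higher side (median −0.17, females −0.20), led by Sardh. The pair medians were −0.058, −0.39 and −0.052, lowest in SD3. Without male HPS SD3 or the library labelled male LPS SD6, which make up that pair, 1 member stood on the lower side (medians −0.088 and −0.089), and as labelled 3 did. Without male HPS SD2 the count was 3, and without male LPS SD2 the median was −0.28. Ldh, the lactate dehydrogenase, was at 32.5, 40.1 and 31.9 CPM on HPS and 25.3, 25.3 and 20.8 CPM on LPS (−0.50 ± 0.16, edgeR adjusted p = 0.282), without overlap. Sodh1, a sorbitol dehydrogenase, was at 183, 204 and 177 CPM on HPS and 122, 163 and 92.5 CPM on LPS (−0.55 ± 0.19, edgeR adjusted p = 0.303), also without overlap. The other tested dehydrogenases of its list, Adh, Gld, Fdh, Aldh and Sodh2, lay between −0.18 and 0.25 with an unadjusted p of 0.15 or above. Amy-p, an amylase, was at 1.8, 19.1 and 3.98 CPM on HPS and 1.93, 2.45 and 5.32 CPM on LPS (−1.07 ± 0.39, edgeR adjusted p = 0.33). Across all genes the LPS samples lay above all HPS samples in 3.21% and below them in 3.58%.

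Genes of lipid handling were mixed. Lipid transport had 4 of 11 on the higher side and 1 on the lower side (median 0.15), and 2 on the higher side without male HPS SD2. The lipophorin gene apolpp, which encodes the main lipid carrier of the blood, was at 267, 99.1 and 358 CPM on HPS and 304, 679 and 214 CPM on LPS. Its ratio was 0.73 ± 0.18 (edgeR adjusted p = 0.158), and as labelled it was −0.12 without the library labelled male LPS SD3. Acox57D-d, a peroxisomal acyl-CoA oxidase, was at 0.57 ± 0.10 (edgeR adjusted p = 0.0645) and mdy, which makes triglyceride, at 0.33 ± 0.085 (edgeR adjusted p = 0.158). The sugar-induced transcription factor gene sug was at 8.53, 11.5 and 5.69 CPM on HPS and 9.02, 16.1 and 11.1 CPM on LPS (0.54 ± 0.25, edgeR adjusted p = 0.438), and its list had 0 of 12 members with an unadjusted p below 0.05. AkhR, the receptor of adipokinetic hormone, was at 0.40 ± 0.13 (edgeR adjusted p = 0.267). Of 19 insulin pathway genes 1 had an unadjusted p below 0.05, Ilp2 of the insulin-producing neurons, at 29.7, 35.2 and 42.9 CPM on HPS and 37.6, 47.1 and 40.9 CPM on LPS (0.22 ± 0.078, edgeR adjusted p = 0.315). REPTOR-BP, a partner of a transcription factor held back by TOR, was at 0.49 ± 0.12 (edgeR adjusted p = 0.158), without overlap of the groups, and its list of 14 had 2 positive members.

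Detoxification genes, which hold Cyp4e3, had 9 of 99 on the higher side and 4 on the lower side (median 0.054), with 4 on the higher side as labelled and 4 without male HPS SD2. MtnA, a metallothionein, was at 122, 70.8 and 504 CPM on HPS and 226, 507 and 147 CPM on LPS. Its ratio was 0.64 ± 0.16 (edgeR adjusted p = 0.158). MtnA was higher on LPS in the exchanged SD2 and SD3 pairs and level in the exchanged SD6 pair, with a log2 difference of 0.0076. As labelled the SD6 pair was at −1.78. MtnD was at 0.19, 0.36 and 3.13 CPM on HPS and 0.138, 0.722 and 0.231 CPM on LPS (−1.68 ± 0.39, edgeR adjusted p = 0.149), so 1 HPS sample stood apart. That sample, HPS SD6, had 44 reads, and the library labelled LPS SD3, which lies with strain SD6, had 13. Every other male library had 1 to 3 reads, at or under the floor of 3. MtnE and MtnF were at 0.32 ± 0.42 and 0.47 ± 0.15, MTF-1, the transcription factor that drives the metallothionein genes, was at 0.019 ± 0.10, and MtnB and MtnC were too low to be tested. Of 20 heat shock genes 1 stood on the higher side and 2 on the lower, led by the co-chaperone gene stv (−0.27 ± 0.069). Odc1, the ornithine decarboxylase of polyamine synthesis, was at 9.29, 10.8 and 13.6 CPM on HPS and 19.2, 23.1 and 16.2 CPM on LPS (0.81 ± 0.20, edgeR adjusted p = 0.158), without overlap.

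In the eye and the surface of the head, phototransduction genes had 7 of 31 on the lower side and 1 on the higher side (median −0.057, females 0.0092). Without male HPS SD3 4 stood on the lower side and the median was −0.015, without male LPS SD2 it was −0.027, and as labelled 6 stood on the lower side. The list was led by ninaG, an enzyme that makes the visual chromophore, at 245, 141 and 139 CPM on HPS and 181, 98.1 and 99.1 CPM on LPS (−0.48 ± 0.12, edgeR adjusted p = 0.158). Rh6, the rhodopsin of a class of R8 cells, was at 355, 576 and 485 CPM on HPS and 320, 456 and 391 CPM on LPS (−0.27 ± 0.10). The summed photoreceptor markers ran from 50200 to 56800 CPM on HPS and from 49300 to 52200 CPM on LPS. Ddc, which makes dopamine for tanning and for neurons, was at −0.24 ± 0.10 (edgeR adjusted p = 0.379). Cuticle proteins had 7 of 55 on the lower side and 4 on the higher side (median −0.078, females −0.089). Their pair medians were −0.022, −0.29 and 0.13, and the count on the lower side was 12 without the library labelled male LPS SD3. The proteasome had 4 of 34 on the lower side and 1 on the higher, with a median of −0.079 against −0.25 in females. Without male HPS SD3 its median was −0.019 with 1 on the lower side, and without the library labelled male LPS SD6 or male LPS SD2 2 stood there. For 7 of its genes the difference between the sexes had an unadjusted p below 0.05, with the male effect the more positive. Over all tested genes that held for 3.16%. The higher member was Sem1, a small lid subunit (0.36 ± 0.11 in males, −0.31 in females).

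Synaptic vesicle genes were positive in 25 of 29 (median 0.084), with 3 on the higher side, and neuron markers in 10 of 11 (median 0.14). The pair medians in SD2, SD3 and SD6 were −0.021, 0.31 and −0.068 for the synaptic list and 0.028, 0.44 and −0.054 for the neuron markers. Without the library labelled male LPS SD6 13 of the 29 synaptic genes were positive (median −0.011) and the neuron median was 0.016. Without male HPS SD3 the medians were 0.036 and 0.057. In both cases 0 members of either list stood on the higher side, as was also so for the synaptic list without male HPS SD2. The priming factor gene unc-13 led the synaptic list (0.33 ± 0.13, edgeR adjusted p = 0.385). Receptors of transmitters and neuropeptides centred on −0.0064 (23 of 48 positive), led by the dopamine receptor gene Dop1R1 (0.40 ± 0.11, edgeR adjusted p = 0.192). The astrocyte-like glia gene alrm was at 0.28 ± 0.07 (edgeR adjusted p = 0.158), and Ppn, an extracellular matrix gene of the haemocyte list, at 0.51 ± 0.12 (edgeR adjusted p = 0.149). Genes of oenocytes, the cells that make cuticular hydrocarbons, had ratios of −0.73 ± 0.43 (FarO), −0.39 ± 0.59 (Cyp4g1), −0.22 ± 0.21 (FASN2) and −0.14 ± 0.13 (Desat1), with edgeR adjusted p from 0.533 to 0.831. Muscle markers had a median of −0.10 in males, against −0.29 in females, and of 0.051 without male LPS SD2. The circadian clock and male dosage compensation lists had 0 of 13 and 0 of 14 members with an unadjusted p below 0.05, and Pdf and msl-2 were at 0.26 ± 0.12 and −0.16 ± 0.083.

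Several lists on the higher side share short coding sequences, and the log2 ratio of LPS to HPS in males moved with coding length over all genes. The length check had been planned as a measure of RNA quality or library fragment size. The part of these beside that of diet was not tested. Coding lengths were known for 9477 of the tested genes (94.5%), which were divided into 4 classes of nearly equal size. With exchanged labels the median log2 ratio was 0.11 in the class of 75 to 828 bp, 0.0072 at 831 to 1395 bp, −0.044 at 1398 to 2226 bp and −0.047 at 2229 to 68847 bp. In the shortest class 398 genes (16.8%) had an unadjusted p below 0.05 on the higher side and 36 (1.52%) on the lower side. In the longest class these counts were 42 (1.78%) and 220 (9.30%). Without both SD2 samples they were 212 and 30 in the shortest class and 67 and 139 in the longest. Without male HPS SD3 110 genes of the longest class stood on the lower side. Within the shortest class the median was 0.076 for genes above the median level and 0.15 for those below it. As labelled the medians of the shortest and longest classes were 0.13 and −0.041.

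**Figure D5:**
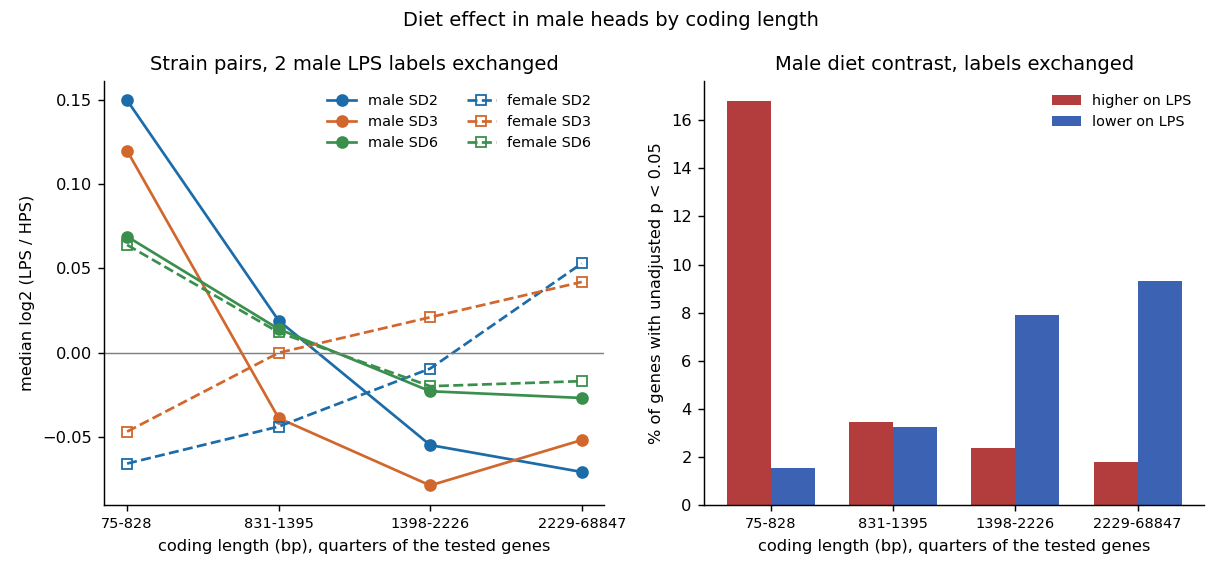
Left, the median log2 ratio of LPS to HPS in 4 classes of coding length for each male pair (filled, 2 labels exchanged) and female pair (open). Right, the percentage of genes in each class with an unadjusted p below 0.05 in the male contrast. The shortest class is highest in all 3 male pairs (0.069 to 0.15), and 16.8% of its genes stand on the higher side against 1.52% on the lower side.

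The shift of the shortest class was 0.15 in the SD2 pair, 0.12 in the SD3 pair and 0.069 in the SD6 pair. As labelled it was 0.21 in SD3 and −0.021 in SD6. Within run0465 the SD2 pair gave 0.14, and the 2 libraries of the same SD2 LPS RNA, from different runs, differed by −0.032. In the female pairs it was −0.066 in SD2, −0.047 in SD3 and 0.064 in SD6. Over the 17 alternatives with exchanged labels the male median of the shortest class ran from 0.10 to 0.14 and that of the longest from −0.06 to −0.024. The share of gene reads in the shortest class was 22.4%, 21.4% and 23.2% in the HPS males. It was 25.1% and 25.2% in the 2 LPS SD2 libraries, 24% in that labelled LPS SD3 and 22.9% in that labelled LPS SD6. In HPS females it was 23.4% to 24.4% and in LPS females 23.1% to 23.9%. For the difference between the sexes 243 of 2370 genes of the shortest class had an unadjusted p below 0.05 with the male effect the more positive. At such a p it was the more negative for 12. Among the 2365 genes of the longest class these counts were 8 and 66.

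The lists shared this property to different degrees. In the shortest class lay 57 of 69 oxidative phosphorylation genes, 52 of 70 mitochondrial ribosomal, 73 of 80 cytosolic ribosomal, 38 of 41 antimicrobial and stress peptide, 31 of 36 neuropeptide, 29 of 29 odorant-binding protein and 15 of 21 splicing genes. Of these short members 21, 16, 11, 11, 6, 4 and 3, in the same order, had an unadjusted p below 0.05 on the higher side. In the whole class this held for 16.8%. The short members of oxidative phosphorylation had a median of 0.14 and the 12 others −0.07, and those of the mitochondrial ribosome had 0.18 against 0.018 for the 18 others. For the splicing list the medians were 0.20 and −0.05. Short cytosolic ribosomal protein genes were at 0.04 and short antimicrobial and stress peptide genes at 0.37, below and above the 0.11 of the class, while short cuticle protein genes were at −0.063. All 10 next genes on the higher side were in the shortest class, as were 2 of the 10 on the lower side. Of the 12 called genes 3 of the 6 that rose and 3 of the 6 that fell were in it. The part of coding length in the list values was not tested.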

How the data were processed

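Per the labels' protocols, poly(A) RNA from 100 ng of total RNA was made into stranded libraries with 20 pg of spike-in RNA and read as single ends of 75 bp. The authors deposited raw read counts for each gene. Tools named in the submitters' processing notes are HTSeq 0.6.1p1, TopHat2 2.1.0, bcl2fastq 1.8 and CASAVA 1.8.2. The genome build is not given in the sources used here, so chromosome arms, symbols (17155 of 17370 genes) and coding lengths came from the Ensembl annotation of BDGP6 and no coordinates are printed. The 96 spike-in entries and 5 summary entries stayed out. Reads of opposite-strand neighbours are counted apart where the counting used strand, as the deposited names of the tables say. No sequence is shown.

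The tests used edgeR 4.0.16 under R 4.3.3 (TMM, filterByExpr at a minimum count of 10, quasi-likelihood F-test) on 12 samples with 4 groups of diet and sex and strain as a fixed block, which left 6 residual degrees of freedom. The contrast was male LPS minus male HPS. limma 3.58.1 and DESeq2 1.42.0 were alternatives, and each tool's main fit was also run on simulated data. These were drawn from the means and spread of the edgeR fit with exchanged labels. They therefore cannot show whether that model holds here, and no result rests on them. Replicate numbers are strain numbers, so they pair samples by design, and the correlations of deviations in the report are the check of that pairing. Pair differences used log2 CPM with a prior count of 2.

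The members, lists and alternatives were chosen with earlier results of these data known, so no list is independent evidence. Genes were named by rule: those past the threshold, then the 10 of smallest p per direction with 1 sign in every pair under both pairings, the member of smallest p in each list, and all members of lists of 8 or fewer. Coding length stands in for the protein length that had been planned. Depth was 8.63 M to 27.5 M gene reads per male sample, and 3 reads, the floor, is 0.293 CPM in the male HPS SD2 library before scaling.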

Additional observations from a re-analysis of the deposited data

How the results depend on the processing

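As labelled 0 genes passed between male diets under every alternative except DESeq2 (19), the exchange of 2 strain labels (12) and the omission of 1 sample, where counts ran from 0 to 28 (2 without the library labelled male LPS SD3 and 28 without that labelled male LPS SD6). Without the replicate block by strain 0 genes passed, with 401 at an unadjusted p below 0.05, and with a replicate block by strain and sex 0. With exchanged labels the 12 became 74 without a filter on low counts, 98 with DESeq2, 2 with the 6 male samples alone, 2 without both SD2 samples, 7 with the run0465 library alone and 0 with strain as a random block, and 0 to 16 when 1 sample was left out. For the difference between the sexes with exchanged labels, 0 became 1 without a filter (TotA), 3 with DESeq2, and 0 to 1 when 1 sample was left out (COX7AL2 without male HPS SD6 and AttC without male LPS SD6). These genes were chosen after their values were seen. The causes were not tested.

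None of the 12 called genes turned its sign under any alternative in either pairing. The alternatives used the samples in which the 12 were chosen, so this is no independent support. Signs were followed only for the genes named by rule, not for all tested genes. Among the named genes that did not pass, signs turned for 14. For Lsp1gamma as labelled the ratio was −1.73 with limma-voom, −0.39 with 6 male samples alone, −0.44 with the replicate block by strain and sex, −0.69 without a replicate block, −0.68 without it in male samples alone, −0.79 with a random block and −0.58 without the pair of doubtful libraries. Adh went to −0.02 with limma-voom, to −0.37 with a random block and to −0.23 with a random block and exchanged labels. Without the doubtful libraries Fdh was 0.094, Sodh2 0.10, MTF-1 −0.073 and Desat1 0.12. MTF-1 was −0.016 with the run0465 library alone (−0.014 with exchanged labels), and FASN2 0.28 without both SD2 samples.

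Leaving out 1 male sample as labelled gave log2 ratios of −1.71 to 0.23 for Lsp1beta, −1.98 to 1.10 for Lsp1gamma, −0.12 to 1.58 for apolpp, −0.58 to 1.03 for Adh, −0.47 to 0.46 for Gld, −0.19 to 0.066 for Fdh, −0.064 to 0.27 for Aldh and −0.37 to 0.16 for Sodh2. It gave −0.058 to 1.84 for MtnA, −0.047 to 0.11 for MTF-1, −0.11 to 0.68 for alrm, −1.12 to 0.0063 for Cyp4g1, −0.96 to 0.53 for FASN2 and −0.37 to 0.27 for Desat1. With exchanged labels the ranges that crossed 0 were −0.33 to 0.31 for Gld, −0.22 to 0.046 for Fdh, −0.00054 to 0.15 for Aldh, −0.037 to 0.11 for MTF-1 and −1.23 to 0.23 for Cyp4g1. An omitted sample leaves a strain unpaired in males, and 3 samples per diet limit every value here.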

Other observations

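Some genes outside the groups described above also had small p-values without passing the threshold, with exchanged labels. CG11426 stood at 1500, 1290 and 1510 CPM on HPS and 1140, 962 and 482 CPM on LPS (−0.81 ± 0.16, edgeR adjusted p = 0.101). Jhe, the juvenile hormone esterase, was at 24.4, 27 and 21 CPM on HPS and 20.6, 18.6 and 20 CPM on LPS (−0.28 ± 0.089, edgeR adjusted p = 0.277), with no overlap of the groups. The small Maf gene maf-S, the partner of the oxidative stress factor Cnc, was at 35.6, 33.4 and 42.9 CPM on HPS and 45, 49.2 and 47.1 CPM on LPS (0.33 ± 0.091, edgeR adjusted p = 0.193), also with no overlap.

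The mix of spike-in RNAs in the male HPS SD2 library correlated at 0.947 with that in the run0465 library of male LPS SD2. It correlated at −0.118 between the HPS library and the other library of the same LPS RNA, and no cause was tested.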
